A study of Homo sapiens with 6 samples.

Results

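The 36 genes described here encode the enzymes and transporters that make, recycle and break down nucleotides, including those that handle the pancreatic cancer drug gemcitabine. They were chosen by symbol from a raw count table of 32078 named genes, and all 36 had a row. The series holds 6 poly(A) RNA-seq libraries of PANC-1 cells, a line established from a human pancreatic tumour. For 3 of them (EV-labelled) the label names vesicles (EVs) from CAFs, the cancer-associated fibroblasts of tumour stroma, as treatment, and for the other 3 (control-labelled) it names none. The sources used here give no vesicle dose or exposure time, do not say where the fibroblasts came from, and name no gemcitabine treatment. The extraction text mentions vesicles for all 6 libraries, so which library is a control is known from its title and treatment label alone.

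Cells build purine rings stepwise on the activated sugar PRPP, ending at IMP, from which AMP and GMP are made. The pyrimidine ring is built first and then joined to PRPP to give UMP, from which CTP is made. Ribonucleotide reductase turns ribonucleotides into deoxynucleotides for DNA synthesis, and its small subunit RRM2 and the thymidine enzymes are known to peak in S phase. Salvage kinases and phosphoribosyltransferases recycle bases and nucleosides that enter through nucleoside transporters. Gemcitabine, a deoxycytidine analogue, uses the same route: it enters through carriers such as SLC29A1, is phosphorylated first by DCK, is deaminated by CDA, and in its phosphorylated forms blocks ribonucleotide reductase and DNA synthesis.

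Library totals ranged from 21647493 to 27498709 counts of named genes. Levels are in CPM, counts divided by a library's TMM-scaled size, and 3 counts correspond to 0.11 to 0.138 CPM. KRT8 averaged 3380 ± 181 CPM with EVs and 3060 ± 196 CPM without (SD, n = 3 each), and KRT18 1380 ± 54.3 against 1270 ± 76.3 CPM, and neither passed the test. KRT19 fell to 280 ± 14.7 CPM, against 391 ± 25 CPM (-0.48 ± 0.06 in log2 fold change, adjusted p = 5.78e-06), as did MUC1, at 7.81 ± 1.2 against 19.9 ± 0.846 CPM (-1.35 ± 0.11, adjusted p = 1.89e-08). EPCAM had 0 counts in all 6 libraries and KRT7 at most 10. Of 10 fibroblast markers with a row, 4 (DCN, LUM, THY1 and POSTN) had 0 counts in all libraries. The summed level of the 10 was 199 to 219 CPM in EV-labelled libraries and 120 to 146 CPM in control-labelled libraries. COL1A2 made up most of it and rose, at 186 ± 9.64 against 114 ± 12.6 CPM (0.71 ± 0.07, adjusted p = 3.72e-07). ACTA2 fell, at 2.79 ± 0.676 against 5.23 ± 0.0418 CPM (-0.91 ± 0.17, adjusted p = 0.000233), and COL3A1 did not pass, at 19 ± 0.47 against 17.7 ± 2.15 CPM (0.10 ± 0.09, adjusted p = 0.398). Immune markers summed to 0.924 to 1.37 against 0.804 to 1.17 CPM and endothelial markers to 4.42 to 5.36 against 4.28 to 5.06 CPM. The part of these markers in the results was not tested.

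All 36 genes passed the filter on low counts, with at least 133 counts in each library, and 19 rose and 5 fell in EV-labelled libraries at an adjusted p under 0.05 (edgeR quasi-likelihood test, Benjamini-Hochberg over all 14670 tested genes). Over all tested genes 40.9% were called, 20.2% higher and 20.7% lower. The called share of the 36 was 66.7%, with 52.8% higher. Their median log2 fold change was 0.20, against -0.01 over all tested genes. Changes were small: the called genes differed by 1.15- to 1.55-fold. None of the 36 was called with a change of 2-fold or more, against 559 of all 14670 tested genes. The median absolute log2 fold change was 0.26 for the 36 and 0.23 over all tested genes, so the 36 did not change less than other genes. The EV-labelled and control-labelled libraries did not overlap for 25 of the 36, against 50.6% of all tested genes. Deoxynucleotide genes rose in 6 of 8 and none fell, while the purine branch was mixed, with 6 higher and 3 lower of 11.

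**Figure D1:**
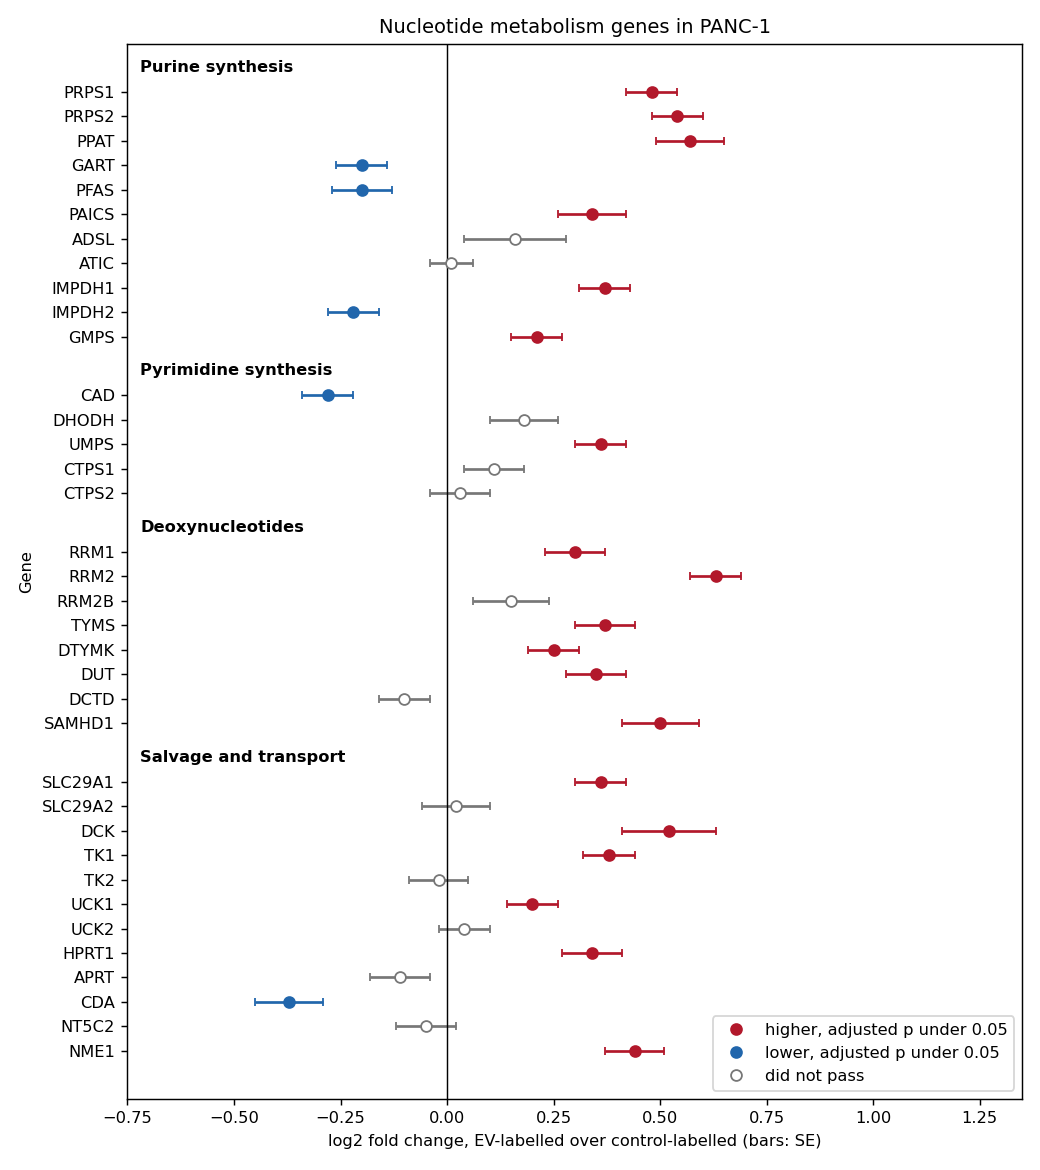
Log2 fold change (EV-labelled over control-labelled, x axis) of the 36 genes grouped by branch, with bars for the SE. Filled red points passed the test as higher (19 genes), filled blue points as lower (5 genes) and open grey points did not pass (12 genes). RRM2 lies farthest to the right at 0.63 and CDA farthest to the left at -0.37.

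The branches differed in summed level. The 8 deoxynucleotide genes summed to 1038, 1079 and 1052 CPM in EV-labelled libraries, against 841.1, 790.7 and 792.2 CPM in control-labelled libraries. The 12 salvage and transport genes summed to 1183 ± 35.5 against 1053 ± 13.6 CPM and the 11 purine genes to 2309 ± 20.9 against 2130 ± 61.3 CPM (SD, n = 3 each). For these branches every EV-labelled sum was above every control-labelled sum. The 5 pyrimidine genes summed to 535.2 ± 25.2 against 558.6 ± 21.7 CPM, and there the groups overlapped. Such sums weigh abundant genes most. In the pyrimidine sum CAD was at 261 ± 23.5 against 318 ± 12.8 CPM, while 4 of the 5 genes had a positive log2 fold change (branch median 0.11). In the deoxynucleotide sum RRM2 was at 419 ± 19 against 270 ± 9.29 CPM. In bulk libraries a level per cell and the share of cells in a given state, such as S phase, cannot be told apart.

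Among the deoxynucleotide genes, RRM2 had the largest change of all 36. It was at 397, 431 and 429 CPM in EV-labelled libraries and at 279, 271 and 260 CPM in control-labelled libraries, so the lowest EV-labelled library lay well above the highest control-labelled library. The log2 fold change was 0.63 ± 0.06 (SE, adjusted p = 8.8e-08). RRM2 shares 1077 exon bases on the same strand with AC007240.1, which had no row among the counted genes. RRM1, the large catalytic subunit, was at 204, 215 and 213 CPM in EV-labelled libraries, against 187, 155 and 171 CPM in control-labelled libraries, and rose less (0.30 ± 0.07, adjusted p = 0.00107). RRM2B, the p53-inducible small subunit that serves DNA repair and mitochondria outside S phase, averaged 18.2 ± 1.12 against 16.4 ± 1.53 CPM, with overlapping groups, and did not pass (0.15 ± 0.09, adjusted p = 0.227). CDKN1A, another p53 target, was at 11.1 ± 1.52 against 14.4 ± 2.42 CPM (-0.37 ± 0.12, adjusted p = 0.0229).

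The enzymes that supply thymidine nucleotides rose together with RRM2. TYMS, thymidylate synthase, which converts dUMP to dTMP, was at 94.1, 89.6 and 83 CPM in EV-labelled libraries, against 74.4, 68.6 and 63.7 CPM in control-labelled libraries. All EV-labelled values were higher, and the log2 fold change was 0.37 ± 0.07 (adjusted p = 0.00029). ENOSF1, which overlaps TYMS on the opposite strand, had a log2 fold change of -0.19 ± 0.08 (adjusted p = 0.0639), and reads of the 2 genes cannot be told apart if the counting ignored strand. DUT, the dUTPase that keeps uracil out of DNA and yields dUMP, averaged 62.7 ± 3.11 against 49.2 ± 4.71 CPM (0.35 ± 0.07, adjusted p = 0.000763). DTYMK, which phosphorylates dTMP, averaged 118 ± 4.49 against 99.2 ± 5.44 CPM (0.25 ± 0.06, adjusted p = 0.00298). DCTD, the dCMP deaminase that feeds dUMP, averaged 95.2 ± 2.63 against 102 ± 1.14 CPM. Its groups did not overlap, but the difference did not pass (-0.10 ± 0.06, adjusted p = 0.153).

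SAMHD1, which hydrolyses deoxynucleoside triphosphates and thus works against the enzymes above, was higher too. It was at 43.3, 42.6 and 44.8 CPM in EV-labelled libraries and at 36.6, 27.8 and 28.5 CPM in control-labelled libraries (log2 fold change 0.50 ± 0.09, adjusted p = 0.000193). Control replicate 1 was the highest of its group and still below every EV-labelled library. Among 30 genes of DNA replication, listed as a measure of S phase, 27 rose and 0 fell, with a median log2 fold change of 0.44, against 0.33 for the 8 deoxynucleotide genes. E2F1, a transcription factor that drives S phase genes, was at 106 ± 4.47 against 76.3 ± 4.10 CPM (0.47 ± 0.06, adjusted p = 8.43e-06). The part of this shift in the changes of the 36 genes was not tested.

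Promoter windows of 6 genes are shown, chosen after their values and motif matches were seen. RRM2, DCK and PPAT had the highest log2 fold change of the deoxynucleotide, salvage and purine branches, RRM1, PRPS1 and DCK are the members with an E2F-type match, and GART is a gene that fell. The table of RefSeq promoters (GRCh38.p14), which covers 250 bases before to 50 bases after a gene's start, held 32 of the 36 genes, and ADSL, IMPDH2, RRM2B and SLC29A2 were not matched. Each sequence below is the 250 bases before the annotated start, 5′ to 3′ on the gene's strand. Capitals mark CCAAT, the E-box CACGTG, and the E2F-type strings TTTGGCGC, TTTCGCGC, TTCCCGCC and TTGGCGGG, searched on both strands.
RRM2, chr2:10122489-10122738, plus strand: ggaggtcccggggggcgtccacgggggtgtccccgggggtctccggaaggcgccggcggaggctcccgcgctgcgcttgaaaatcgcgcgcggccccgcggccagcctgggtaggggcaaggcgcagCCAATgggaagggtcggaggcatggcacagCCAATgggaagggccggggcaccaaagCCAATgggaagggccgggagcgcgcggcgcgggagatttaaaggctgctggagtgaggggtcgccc
RRM1, chr11:4094435-4094684, plus strand: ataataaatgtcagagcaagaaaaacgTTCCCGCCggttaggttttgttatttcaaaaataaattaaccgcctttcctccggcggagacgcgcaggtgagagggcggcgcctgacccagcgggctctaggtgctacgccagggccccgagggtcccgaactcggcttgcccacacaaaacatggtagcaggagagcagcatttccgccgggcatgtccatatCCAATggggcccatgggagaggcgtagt
DCK, chr4:70993399-70993648, plus strand: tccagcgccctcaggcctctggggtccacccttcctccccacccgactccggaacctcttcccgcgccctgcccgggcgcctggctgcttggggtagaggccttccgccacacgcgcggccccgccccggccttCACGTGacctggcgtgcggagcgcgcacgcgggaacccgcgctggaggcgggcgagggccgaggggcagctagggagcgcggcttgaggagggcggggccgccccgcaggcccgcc
PRPS1, chrX:107628260-107628509, plus strand: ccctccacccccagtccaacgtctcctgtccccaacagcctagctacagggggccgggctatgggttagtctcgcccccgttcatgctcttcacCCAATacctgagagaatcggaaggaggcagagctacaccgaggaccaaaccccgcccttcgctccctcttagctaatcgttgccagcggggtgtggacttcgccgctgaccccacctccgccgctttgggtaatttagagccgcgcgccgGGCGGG
PPAT, chr4:56435616-56435865, minus strand: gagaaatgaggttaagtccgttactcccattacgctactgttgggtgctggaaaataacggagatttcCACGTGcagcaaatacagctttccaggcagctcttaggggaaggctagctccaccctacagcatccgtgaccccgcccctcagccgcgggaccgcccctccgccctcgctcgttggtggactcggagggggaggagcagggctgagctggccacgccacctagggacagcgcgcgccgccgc
GART, chr21:33542893-33543142, minus strand: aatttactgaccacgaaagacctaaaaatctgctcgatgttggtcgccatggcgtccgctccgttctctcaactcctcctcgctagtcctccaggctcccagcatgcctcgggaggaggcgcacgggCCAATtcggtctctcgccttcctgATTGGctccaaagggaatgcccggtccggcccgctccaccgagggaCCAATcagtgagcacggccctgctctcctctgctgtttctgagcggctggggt

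RRM2 held 3 CCAAT matches, starting at -123, -93 and -66 from the start, and GART, which fell, also held 3, at -123, -99 and -53. RRM1 held the E2F-type string TTCCCGCC at -223, and PRPS1 held its reverse complement from -6 across the start, of which the printed window ends after 6 letters. In DCK the E-box lay at -116, and an E2F-type match on the minus strand began 22 bases after the start, outside the printed bases. Over all 32 windows, any of the 4 E2F-type strings occurred in 3 (9.38%), against 5.38% of 27305 RefSeq windows of the same length. Those 3 genes were all among the 19 that rose, and genes that rose made up 19 of the 32 windows. In the DNA replication list the same strings occurred in 18 of 24 windows. CACGTG occurred in 18.8% of the 32 windows against 7.43% of all windows, and in 4 of the 19 genes that rose against 2 of the 13 others. CCAAT was in 31.2% against 35.7%, the GC box GGGCGG in 62.5% against 44.6%, and the ATF4-type string TGATGNAAN in 3.12% against 3.67%. GGGCGG and TTCCCGCC can share letters, as in PRPS1. A match describes letters in the window and not a bound site, and no match says only that these letters are not there.

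In the purine branch the genes did not move as a block along the pathway. PRPS1 and PRPS2, the synthetases that make PRPP for every later step, both rose. PRPS2 was at 188, 183 and 183 CPM in EV-labelled libraries, against 131, 122 and 128 CPM in control-labelled libraries (log2 fold change 0.54 ± 0.06, adjusted p = 5.28e-07). PRPS1 averaged 125 ± 3.84 against 89.5 ± 6.34 CPM (0.48 ± 0.06, adjusted p = 7.87e-06). PRPSAP1, which encodes a regulatory protein bound to these synthetases, rose as well, at 63.2 ± 2.52 against 48.4 ± 3.81 CPM (0.39 ± 0.07, adjusted p = 0.000178). Its paralogue PRPSAP2 did not pass, at 43.2 ± 3.25 against 41 ± 1.87 CPM with overlapping groups (0.08 ± 0.07, adjusted p = 0.425).

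PPAT, the amidotransferase of the committed step, was at 41.6, 44.7 and 45 CPM in EV-labelled libraries, against 28.6, 26.6 and 33 CPM in control-labelled libraries. Its log2 fold change of 0.57 ± 0.08 (adjusted p = 1.56e-05) was the highest of the purine branch. PAICS, the known divergent neighbour of PPAT, which carries out a middle pair of steps, was at 386, 407 and 390 against 324, 263 and 349 CPM (0.34 ± 0.08, adjusted p = 0.00178). Its control-labelled libraries were spread more widely than those of most other genes here, but none reached an EV-labelled library.

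GART and PFAS were lower. GART, a multifunctional enzyme of the early ring steps, was at 368, 389 and 370 CPM in EV-labelled libraries and at 422, 444 and 424 CPM in control-labelled libraries (-0.20 ± 0.06, adjusted p = 0.00817). SON, which overlaps GART on the opposite strand, had a log2 fold change of 0.11 ± 0.08 (adjusted p = 0.245). PFAS, which adds a nitrogen to the growing ring, averaged 122 ± 6.11 against 140 ± 12.6 CPM (-0.20 ± 0.07, adjusted p = 0.0242). Its groups overlapped, and it no longer passed when EV replicate 1 (adjusted p = 0.0565), EV replicate 2 (adjusted p = 0.136), control replicate 1 (adjusted p = 0.077) or control replicate 3 (adjusted p = 0.105) was left out.

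The last steps to IMP showed no called change. ATIC, which closes the ring, was at 286 ± 7.93 against 285 ± 3.52 CPM (0.01 ± 0.05, adjusted p = 0.951). ADSL, the adenylosuccinate lyase, was at 7.26 ± 0.552 against 6.48 ± 0.706 CPM (0.16 ± 0.12, adjusted p = 0.313). It had the lowest counts of the 36 both in CPM and per kilobase of exons. ADSL shares 1344 exon bases on the same strand with AL022238.4, which had at most 0.147 CPM in a library. Its counts may therefore be split or lost in part, and its low level may not be its abundance.

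On the branch from IMP to GMP the 2 IMP dehydrogenase genes went in opposite directions. IMPDH1 was at 243, 240 and 244 CPM in EV-labelled libraries, against 200, 182 and 181 CPM in control-labelled libraries (0.37 ± 0.06, adjusted p = 5.57e-05). IMPDH2, the isoform usually raised in dividing cells, was at 228, 206 and 212 CPM in EV-labelled libraries, against 250, 257 and 245 CPM in control-labelled libraries (-0.22 ± 0.06, adjusted p = 0.00535). In counts, IMPDH1 exceeded IMPDH2 in every EV-labelled library and was below it in every control-labelled library. Per kilobase of exons IMPDH1 was below IMPDH2 in both groups, at 66.2 ± 0.569 and 77.7 ± 4.02 CPM per kilobase in EV-labelled libraries and at 51.3 ± 2.91 and 90.3 ± 2.28 in control-labelled libraries, so only the shift in their ratio is free of gene length. Rows named as processed copies of IMPDH1 held 1.19% to 2.43% of its counts. GMPS, which completes GMP, averaged 313 ± 6.11 against 272 ± 9.60 CPM (0.21 ± 0.06, adjusted p = 0.00595).

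In the pyrimidine branch the opening and closing activities of UMP synthesis differed. CAD, which carries out the opening steps on a single polypeptide, was at 248, 247 and 289 CPM in EV-labelled libraries, against 332, 310 and 311 CPM in control-labelled libraries. The groups did not overlap, and CAD fell (-0.28 ± 0.06, adjusted p = 0.00184). The transcription factor gene MYC was at 293 ± 16.2 against 419 ± 13.2 CPM (-0.52 ± 0.06, adjusted p = 1.32e-06). ATF4, a stress-responsive activator of amino acid and nucleotide genes, was at 348 ± 47.3 against 630 ± 29 CPM (-0.86 ± 0.08, adjusted p = 6.08e-08). These lower levels stand beside changes in both directions, as 19 of the 36 genes rose and 5 fell. The part of MYC and ATF4 in the levels of CAD and the other genes was not tested. UMPS, which makes UMP, was at 90.6, 93.7 and 93.6 CPM in EV-labelled libraries and at 72.6, 67.8 and 76.5 CPM in control-labelled libraries (0.36 ± 0.06, adjusted p = 0.000145).

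DHODH, the mitochondrial dehydrogenase between them, was at 36.7 ± 1.88 against 32.3 ± 2.45 CPM, and narrowly missed the threshold with groups that did not overlap (0.18 ± 0.08, adjusted p = 0.0574). It passed with library totals alone (adjusted p = 0.048) and without control replicate 3 (adjusted p = 0.0166). The CTP synthases CTPS1, at 100 ± 5.35 against 92.9 ± 7.40 CPM (0.11 ± 0.07, adjusted p = 0.195), and CTPS2, at 44.1 ± 2.96 against 43.4 ± 1.36 CPM (0.03 ± 0.07, adjusted p = 0.796), did not pass.

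In salvage and transport, 6 of 12 genes rose and CDA fell. SLC29A1, the main equilibrative nucleoside transporter of the plasma membrane, was at 135, 141 and 143 CPM in EV-labelled libraries, against 115, 105 and 105 CPM in control-labelled libraries (0.36 ± 0.06, adjusted p = 8.37e-05). Its paralogue SLC29A2 averaged 31.4 ± 0.924 against 30.9 ± 2.55 CPM, with overlapping groups (0.02 ± 0.08, adjusted p = 0.829). The concentrative carriers were close to the detection floor: SLC28A1 was at 0.354 ± 0.168 against 0.613 ± 0.281 CPM (adjusted p = 0.15), and SLC28A2 and SLC28A3 were below the filter.

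DCK, the deoxycytidine kinase that starts gemcitabine activation, was at 20.9, 18.9 and 17.3 CPM in EV-labelled libraries, against 12.1, 12.1 and 15.4 CPM in control-labelled libraries. The groups did not overlap and the log2 fold change was 0.52 ± 0.11 (adjusted p = 0.000655). MOB1B, which shares 199 exon bases with DCK on the same strand, had a log2 fold change of 0.15 ± 0.10 (adjusted p = 0.257). CDA, the cytidine deaminase that inactivates the drug, was at 32.1, 26.2 and 26.9 CPM in EV-labelled libraries and at 39.3, 36.2 and 34.6 CPM in control-labelled libraries, again with no overlap (-0.37 ± 0.08, adjusted p = 0.00172). NME1, a nucleoside diphosphate kinase that adds the last phosphate, was at 92.3, 93.9 and 76.6 CPM in EV-labelled libraries, against 62.6, 63.7 and 66.8 CPM in control-labelled libraries (0.44 ± 0.07, adjusted p = 8.49e-05). NME1 shares exons with an annotated readthrough to NME2, so its counts may be split in part.

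**Figure D2:**
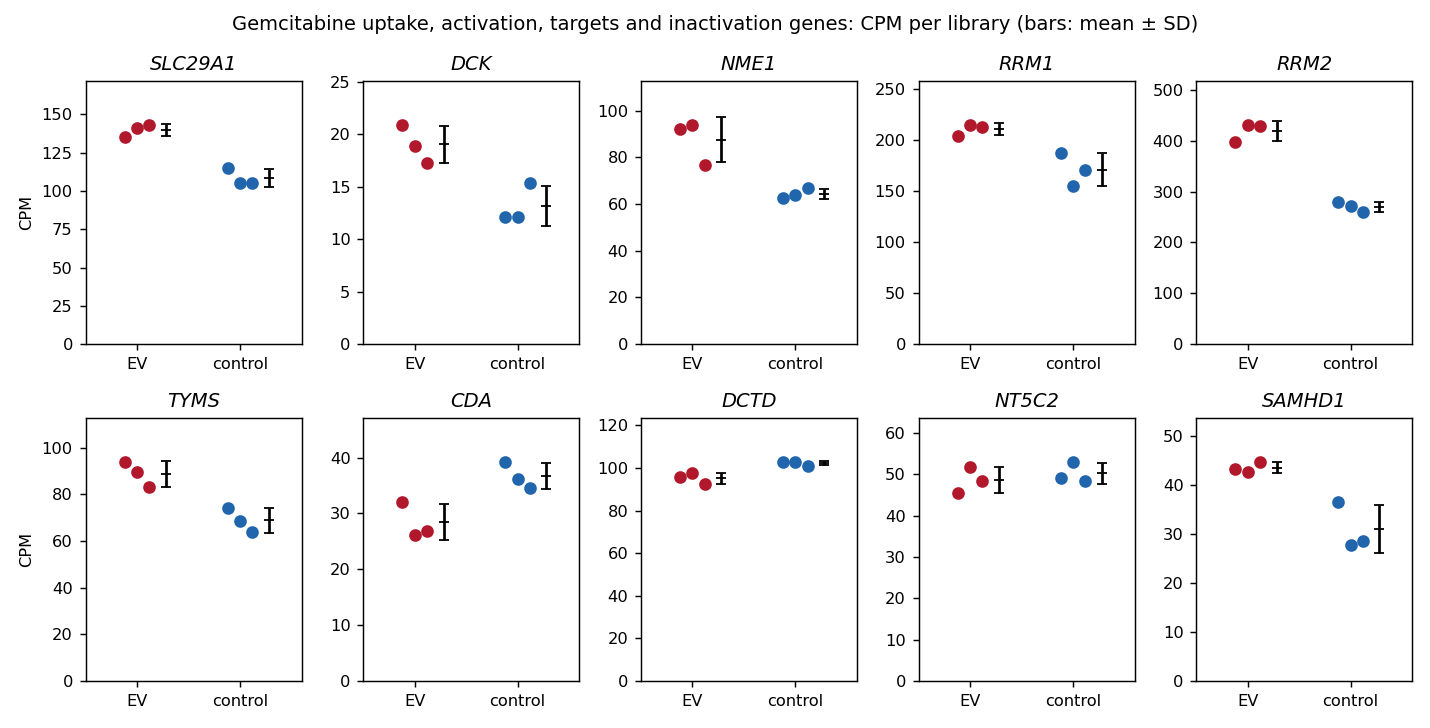
CPM (y axis, from 0) in each library for 10 genes of gemcitabine uptake, activation, targets and inactivation, EV-labelled libraries in red on the left and control-labelled libraries in blue on the right, with black bars for the mean ± SD (n = 3). For SLC29A1, DCK, NME1, RRM1, RRM2, TYMS and SAMHD1 every EV-labelled library is above every control-labelled library, for CDA and DCTD every EV-labelled library is below, and for NT5C2 the groups overlap.

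Of the other gemcitabine genes, NT5C2, a nucleotidase that removes the phosphate DCK adds, was at 48.6 ± 3.10 against 50.3 ± 2.43 CPM (-0.05 ± 0.07, adjusted p = 0.576). CNNM2 overlaps it on the opposite strand. CMPK1, the kinase for the second phosphate of gemcitabine, was at 144 ± 3.29 against 137 ± 1.42 CPM, and although its groups did not overlap it did not pass (0.08 ± 0.06, adjusted p = 0.289). SLC29A1, DCK, NME1, the targets RRM1, RRM2 and TYMS and the triphosphate hydrolase SAMHD1 were higher, and CDA was lower. The carrier SLC29A2, CMPK1, NT5C2 and DCTD did not pass, so the called genes do not cover the whole route. Of the other NME genes tested, NME4 rose (0.23 ± 0.07, adjusted p = 0.00811). NME2 (0.22 ± 0.14, adjusted p = 0.212), NME3 (0.11 ± 0.08, adjusted p = 0.258), NME6 and NME7 did not pass. Protein levels, drug uptake and drug response are not measured by these data.

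TK1, the cytosolic thymidine kinase of S phase, was at 290, 282 and 269 CPM in EV-labelled libraries, against 218, 218 and 212 CPM in control-labelled libraries (0.38 ± 0.06, adjusted p = 2.8e-05). TK2, its mitochondrial counterpart, averaged 48.7 ± 3.79 against 49.6 ± 3.32 CPM, with overlapping groups (-0.02 ± 0.07, adjusted p = 0.82). HPRT1, which salvages hypoxanthine and guanine, averaged 103 ± 2.58 against 81.8 ± 7.18 CPM (0.34 ± 0.07, adjusted p = 0.000459). APRT, which salvages adenine, averaged 217 ± 18.4 against 234 ± 14.8 CPM, again overlapping (-0.11 ± 0.07, adjusted p = 0.207). Of the uridine-cytidine kinases, UCK1 averaged 66.9 ± 1.87 against 58.3 ± 2.82 CPM (0.20 ± 0.06, adjusted p = 0.0166), which did not hold when EV replicate 1 (adjusted p = 0.0593) or control replicate 3 (adjusted p = 0.0659) was left out. UCK2 was at 112 ± 1.46 against 109 ± 5.01 CPM (0.04 ± 0.06, adjusted p = 0.624), and TMCO1, antisense to it, had a log2 fold change of 0.29 ± 0.08 (adjusted p = 0.00907).

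Count ratios within a library compare paralogues or opposing enzymes without any scaling between libraries. For 6 of 8 pairs, chosen by function with earlier results of these data known, the EV-labelled and control-labelled libraries did not overlap. Each of the 6 had an exact two-sided permutation p = 0.1, the smallest that 3 against 3 allows, and an adjusted p = 0.133 over the 8 pairs. Among single tested genes the groups did not overlap for 50.6%, and the share for ratios of other gene pairs was not computed. The ratios reuse the counts of genes tested above. DCK over CDA was at 0.652, 0.722 and 0.645 in EV-labelled libraries, against 0.309, 0.335 and 0.446 in control-labelled libraries, a 1.87-fold difference and the widest of the 8. IMPDH1 over IMPDH2 was at 1.068, 1.164 and 1.149, against 0.803, 0.709 and 0.741 in control-labelled libraries.

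RRM2 over RRM2B was at 22.26, 22.14 and 24.82 in EV-labelled libraries, against 16.85, 18.24 and 14.55 in control-labelled libraries. TK1 over TK2 differed by 1.32-fold and SLC29A1 over SLC29A2 by 1.26-fold, both higher in EV-labelled libraries. UCK2 over UCK1 was lower, with a log2 difference of -0.16. For PRPS1 over PRPS2 (log2 difference -0.06, exact permutation p = 0.4) and CTPS1 over CTPS2 (0.09, exact permutation p = 0.6) the groups overlapped.

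**Figure D3:**
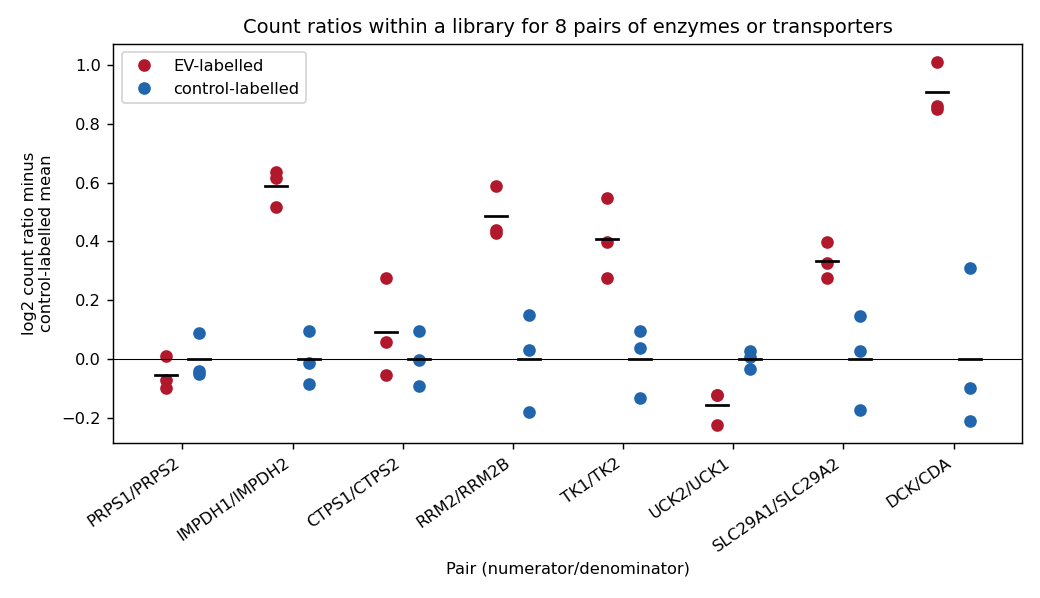
Log2 count ratio of each pair in each library, minus the control-labelled mean of that pair (y axis), for the 8 pairs named on the x axis, with EV-labelled libraries in red on the left of each pair, control-labelled libraries in blue and black lines for group means. DCK/CDA lies highest (mean log2 difference 0.91), and PRPS1/PRPS2 and CTPS1/CTPS2 overlap.

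Levels of different genes were compared per kilobase of exons, with union exon lengths from GENCODE v29. TK1 was highest in EV-labelled libraries at 151 ± 5.56 CPM per kilobase, against 116 ± 1.78 in control-labelled libraries, where APRT was highest at 130 ± 8.22. RRM2 stood in the third place in EV-labelled libraries, at 78.7 ± 3.57 CPM per kilobase, and in the seventh in control-labelled libraries, at 50.8 ± 1.75. DCK was among the 5 lowest in EV-labelled libraries, at 5.90 ± 0.555 against 4.10 ± 0.594 CPM per kilobase. CDA stood well above it in both groups, at 29.5 ± 3.34 and 38.1 ± 2.46 CPM per kilobase in EV-labelled and control-labelled libraries. Lengths come from all annotated exons, on another build than the counts, so this order is approximate.

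**Figure D4:**
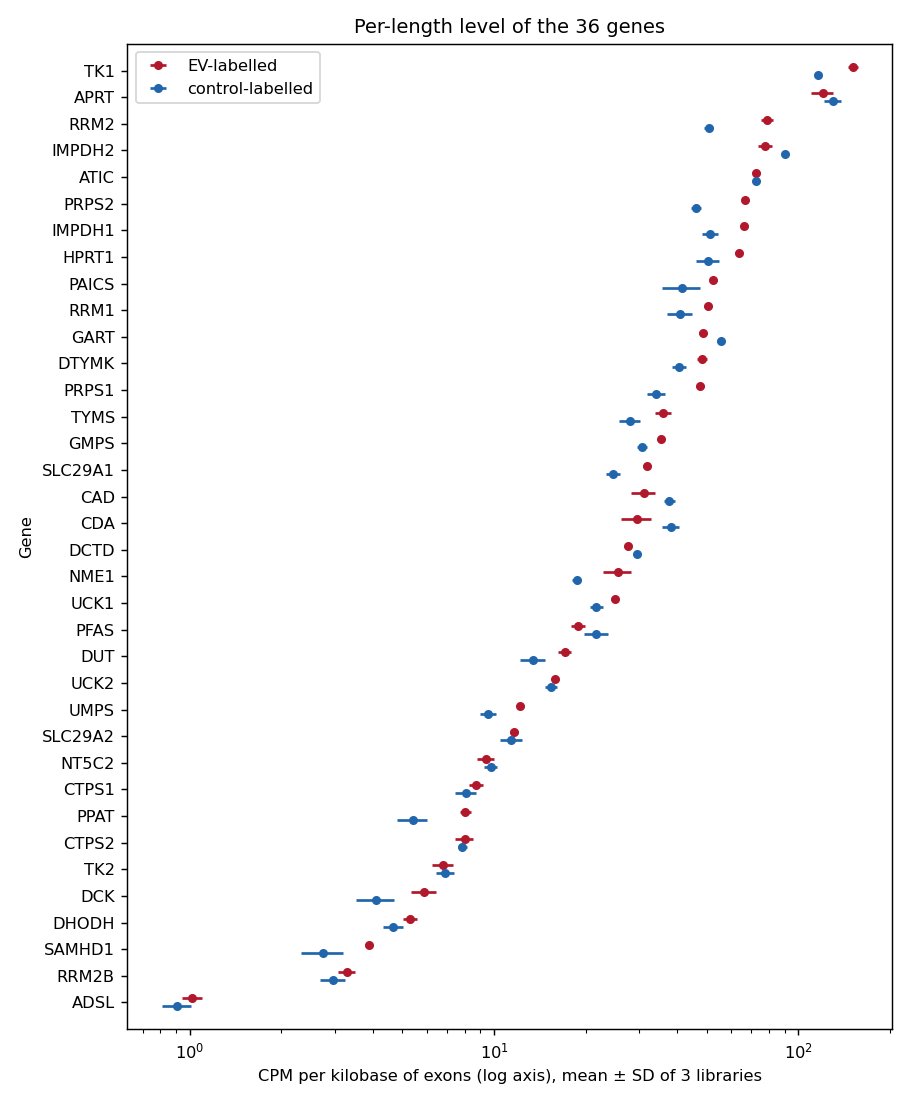
CPM per kilobase of exons (log x axis) of the 36 genes, ordered by the EV-labelled mean, with EV-labelled means in red above control-labelled means in blue and bars for the SD of 3 libraries. TK1 and APRT are highest and ADSL is lowest in both groups.

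Other genes of the same pathways, 75 symbols outside the 36, had 68 rows and 57 tested genes, of which 17 rose and 7 fell (42.1% called, against 40.9% of all tested genes), with a median log2 fold change of 0.05. The largest called rise in the deoxynucleotide list was that of DCTPP1, which hydrolyses dCTP and modified pyrimidine nucleotides, at 79, 78.5 and 66.7 CPM in EV-labelled libraries, against 43.2, 44 and 45.3 CPM in control-labelled libraries (0.76 ± 0.07, adjusted p = 1.21e-07). NUDT1, which removes oxidised purine nucleotides from the pool, was at 47.8 ± 3.24 against 38.9 ± 3.20 CPM (0.30 ± 0.08, adjusted p = 0.00349). These were the called genes among 11 in that list.

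In the other purine genes 8 rose and 4 fell of 25. Higher were AK6 (0.56 ± 0.09), whose exons overlap those of TAF9 (-0.18 ± 0.06, adjusted p = 0.0198), beside PRPSAP1, and ADA, the adenosine deaminase (0.41 ± 0.09, adjusted p = 0.000976). Lower were NT5E, the cell surface enzyme CD73 that makes adenosine, at 592, 650 and 627 CPM in EV-labelled libraries against 749, 786 and 823 CPM in control-labelled libraries (-0.34 ± 0.06, adjusted p = 0.00016), AMPD3 (-0.40 ± 0.08) and AK4 (-0.29 ± 0.07). In the other pyrimidine genes 3 rose and 3 fell of 13. DPYD, which breaks down uracil and thymine, fell (-0.30 ± 0.07, adjusted p = 0.00133) and shares exons with MIR137HG (-0.69 ± 0.07), and lower too were UPRT (-0.39 ± 0.10) and UPP1, a uridine phosphorylase (-0.26 ± 0.09). NME4 (0.23 ± 0.07), NT5C3B (0.20 ± 0.06) and NT5C3A (0.25 ± 0.09) rose. These last calls and that of UPP1 were each lost when certain libraries were left out, 1 at a time. NME4 failed when EV replicate 1 was left out (adjusted p = 0.0577). NT5C3B failed likewise for EV replicate 1 (adjusted p = 0.0646), control replicate 1 (adjusted p = 0.0566) or control replicate 3 (adjusted p = 0.059). NT5C3A failed without EV replicate 1 or 2 or control replicate 1 or 2 (adjusted p = 0.0719 to 0.129) and with upper-quartile scaling (adjusted p = 0.0579). UPP1, whose groups overlapped, failed without EV replicate 2 or 3 or control replicate 2 or 3 (adjusted p = 0.0636 to 0.1). Among other transporters 4 rose and 0 fell of 8. These were the folate carrier gene SLC19A1 (0.42 ± 0.06, adjusted p = 2.5e-05), which overlaps COL18A1 (0.28 ± 0.08, adjusted p = 0.0101) on the opposite strand, the efflux pump genes ABCC5 (0.38 ± 0.07) and ABCC4 (0.39 ± 0.07), which export nucleotide analogues, and SLC29A4 (0.34 ± 0.09).

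The authors' deposited table lists all 36 genes, with fold changes given as control over EV. Of these, 23 have a q under 0.05 in the authors' deposited table and all 23 are among the 24 called here, while PFAS has q = 0.0681 in the authors' deposited table. None of the 36 is marked up or down in the authors' deposited table. Both comparisons rest on the same libraries.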

How the data were processed

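Counts per gene from 6 libraries labelled as PANC-1, 3 treated with CAF-derived vesicles and 3 controls, were compared. The authors deposited raw counts for 32453 features, whole numbers per library. TopHat, RSEM and hg19 are named, with no version or role, per the submitters' processing notes. No source used here gives the annotation release or says whether counting used strand. Per the labels' protocols, poly(A) RNA was captured and the second cDNA strand removed. The 375 features without a gene name (0.099% to 0.134% of counts) were left out of library sizes and tests. The authors also deposited a table with log2 group means, log2 fold changes, p-values and q-values of their own comparison.

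The test was edgeR's (4.0.16, under R 4.3.3; glmQLFit and glmQLFTest, TMM factors, filterByExpr, prior count 0.125, Benjamini-Hochberg over all tested genes, threshold 0.05). Fold changes divide EV-labelled by control-labelled levels, and the SE is the log2 coefficient over the square root of F. Pair ratios had 0.5 added to each count. The members, lists and pairs were chosen with earlier results of these data known. Named outside the 36 are, per list, up to 3 called genes of lowest adjusted p that rose and 3 that fell. MYC, ATF4, E2F1 and CDKN1A are named too. ENOSF1, SON, MOB1B, CNNM2, TMCO1, TAF9, COL18A1, MIR137HG, CMPK1, SLC28A1 to SLC28A3, SLC29A4, AL022238.4 and AC007240.1 were named after values were seen. The same holds for NME2, NME3, NME6, NME7, PRPSAP2 and MDM2.

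Nothing in the labels says that replicates are separate cultures, so the p-values reflect spread among these libraries alone, which may be technical. Within groups the chi-square per degree of freedom of 2 libraries was 4.83 to 9.73, above sampling noise. The scripts were tested on simulated data. Floors cover counting error only. Exon lengths and overlaps are from GENCODE v29 on GRCh38, and no coordinates of the counted genes are printed. Alternatives tried were scaling by median ratios, by upper quartiles or by library totals alone, no filtering or at least 1 CPM in 3 libraries, DESeq2 1.42.0, limma-voom (limma 3.58.1), the replicate number as a block, and each library left out in turn.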

Additional observations from a re-analysis of the deposited data

How the results depend on the processing

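Over 14 alternatives, 22 of the 24 called genes passed in every one, and the exceptions were PFAS and UCK1. Of the 12 genes not called, 11 passed in none, and DHODH passed with library totals alone and without control replicate 3, which makes 2 higher pyrimidine genes in place of 1. No called gene changed sign. The 36 genes had 18 to 19 higher and 4 to 5 lower with 1 library left out, and 19 to 20 higher and 5 lower otherwise. Over all genes, 2335 to 2806 were higher and 2421 to 2806 lower with 1 library left out. The median log2 fold change of the 36 ranged from 0.18 to 0.23. Other pathway genes had 13 to 18 higher and 6 to 8 lower. The 6 ratios whose groups did not overlap kept their direction without each library, DCK over CDA at a log2 difference of 0.80 to 1.06, while CTPS1 over CTPS2 was at -0.001 without EV replicate 2.

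With the replicate number as a block, 19 of the 36 genes were higher and 5 lower, and 17 and 7 of the other pathway genes, as without it. The numbers gave no sign of pairing: deviations of same-numbered libraries from their group means correlated across genes at -0.04, -0.02 and -0.034, and no library correlated best with its own number. Correlations this weak, from 3 libraries a group, cannot exclude a paired design. With 3 libraries a group and called differences as small as 1.15-fold, a gene that did not pass is not shown to be unchanged.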

Other observations

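MTAP, the phosphorylase that returns adenine and methionine precursors from polyamine synthesis, had 0 counts in all 6 libraries, which allows up to 0.138 CPM in a library. Among the adenylate kinases, AK5, usually described as a brain isoform, was at 137 ± 13.2 CPM in EV-labelled libraries and 139 ± 12.1 CPM in control-labelled libraries (log2 fold change -0.02 ± 0.07, adjusted p = 0.852). The mitochondrial deoxynucleoside salvage gene DGUOK was at 42.4 ± 3.10 against 42.2 ± 3.51 CPM (0.00 ± 0.08, adjusted p = 0.973), beside TK2, which did not pass either. MTAP, AK5 and DGUOK were named after their values were seen.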
